A study of Mus musculus with 6 samples.

Results

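Coagulation factor genes encode the plasma proteins that turn fibrinogen into a clot. The 10 genes described here, F2, F5, F7, F8, F9, F10, F11, F12, F13b and Klkb1, were taken as a named list. The list was chosen with earlier results of these data known, which bears on every share set beside it. All 10 were found among 18194 genes measured with a probe set assigned to 1 symbol. Each gene is given by its brightest probe set on average; F5 had 2 probe sets, F10 had 3, and the other 8 genes had 1.

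RNA came from whole livers of CYP2D6 transgenic mice on a C57BL/6 background. The animals of every stage carry this human P450 gene, so no group lacks it. Livers were taken before pregnancy, at day 21 of pregnancy and at day 7 postpartum, with 2 biological replicates a stage and 1 Affymetrix array each, 6 arrays in all. The promoter of the transgene, the number of founder lines, the age of the animals and whether an array held 1 animal are not stated in the labels. Values are log2 signals, on which a difference of 1 is a 2-fold change; signals of different genes come from different probes and are not set against each other. Array medians lay between 5.09 and 5.15. Across genes, the 2 replicates of a stage had Pearson correlations of 0.994 to 0.997. Of 10 hepatocyte markers 9 were measured, all at or above the 40th percentile of genes, and their mean log2 signal was 13.13 and 13.26 in pre-pregnancy livers, 13.1 and 13.16 at day 21 of pregnancy, and 13.22 and 13.13 after birth. Precision is limited by the number of arrays.

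Clotting runs as a cascade of serine proteases, each activated by the one before it. Factor VII with tissue factor starts it after injury, factors XII, XI and plasma kallikrein form the contact branch, and both branches meet at factor X, which with its cofactor factor V converts prothrombin to thrombin. Hepatocytes make most of these proteins, factor VIII is made mainly by endothelial cells, and late pregnancy is known in humans for raised plasma levels of several clotting factors. The labels do not state why clotting genes would be of interest; the comparisons here ask how their liver transcripts differ between the 3 stages.

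In pregnancy 6 of the 10 genes passed limma's test as higher than before pregnancy and 0 as lower; of all 18194 genes 5.46% were called higher and 8.25% lower. F7 rose most among the 10, 2.84-fold, followed by F11 (2.35-fold), F10 (2.06-fold), F5 (1.52-fold), F12 (1.32-fold) and F2 (1.30-fold). Postpartum, F11 and F5 were called lower than in pregnancy, 2 of 10 genes against 0.879% of all genes, and 0 of 10 were called higher, against 2.41%. Against pre-pregnancy, F7 and F10 were called higher postpartum (3.91% of all genes were) and F13b lower (3.75% of all genes were). A call is an adjusted p of at most 0.05 over all genes. The shares count dim genes too, while all 10 genes lay above the median of all genes on every array. Shares over bright genes alone were not computed. In whole liver, fewer cells of a type and less RNA per cell cannot be told apart.

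**Figure D1:**
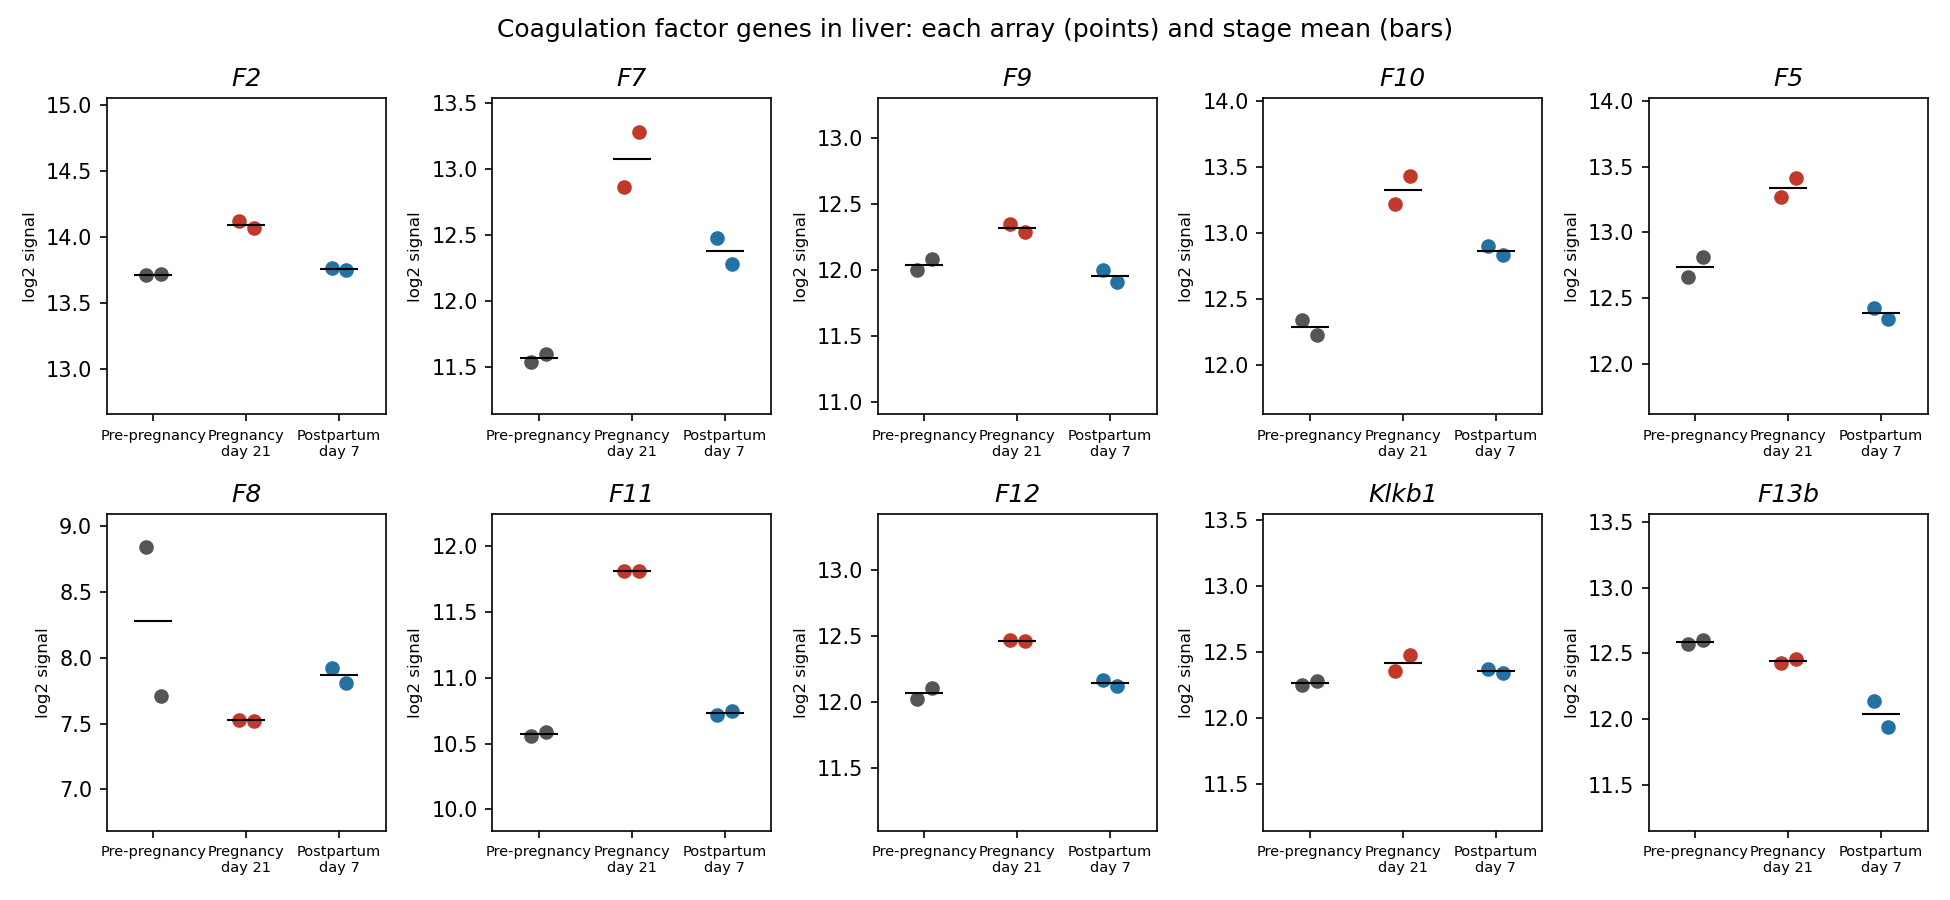
Log2 signal (y axis, each panel spanning the same range) of the 10 coagulation factor genes at each stage (x axis); points are single arrays and bars stage means. F7, F10, F11 and F5 stand higher in pregnancy, F13b is lowest postpartum, and the pre-pregnancy arrays of F8 lie 1.13 apart.

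The start-site regions of the largest rises are shown so that the letters they share can be read. RefSeq promoter windows, 250 bases before to 50 after the gene's start on build GRCm38.p6, were matched for all 10 genes. Capitals mark matches to the letters searched, given after the sequences.
F7, chr8:13025784-13026083, plus strand: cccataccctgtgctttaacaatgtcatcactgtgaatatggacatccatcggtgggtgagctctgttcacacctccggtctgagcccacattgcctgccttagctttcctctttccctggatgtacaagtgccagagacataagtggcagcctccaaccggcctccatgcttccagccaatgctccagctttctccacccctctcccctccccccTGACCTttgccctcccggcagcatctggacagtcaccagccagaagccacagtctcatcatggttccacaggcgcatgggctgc
F10, chr8:13037058-13037357, plus strand: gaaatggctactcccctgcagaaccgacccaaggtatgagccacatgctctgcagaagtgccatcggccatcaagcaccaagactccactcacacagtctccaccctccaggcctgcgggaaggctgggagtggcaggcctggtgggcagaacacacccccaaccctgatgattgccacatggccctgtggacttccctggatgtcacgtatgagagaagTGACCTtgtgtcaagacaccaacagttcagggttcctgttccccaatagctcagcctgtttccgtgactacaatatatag
F11, chr8:45261982-45262281, minus strand: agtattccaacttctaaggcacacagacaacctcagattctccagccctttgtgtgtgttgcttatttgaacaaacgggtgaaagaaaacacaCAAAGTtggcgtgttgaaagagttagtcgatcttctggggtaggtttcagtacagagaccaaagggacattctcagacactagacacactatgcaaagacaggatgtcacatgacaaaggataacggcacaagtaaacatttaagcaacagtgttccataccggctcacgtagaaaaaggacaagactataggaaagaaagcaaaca

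Short motifs of liver factors were searched on both strands, as the exact letters given here. A site spelled otherwise was not counted. The HNF4 half-site was searched as CAAAGT and the HNF1 half-site as GTTAAT. For C/EBP the letters were TTGCAA, which read the same on both strands and are not a half-site. C/EBP half-sites were not searched. The E-box was searched as CACGTG, the shared half-site of many nuclear receptors as AGGTCA, and the box near many start sites as TATAAA. The nuclear receptor half-site AGGTCA, read as TGACCT on the other strand, was found in 5 of the 10 windows, those of F2, F5, F7, F9 and F10, and in 16.3% of all 32851 promoter windows. CAAAGT was found in F8, F9 and F11 (3 of 10, against 14.4% of all windows). In F7 and F9 the letters CAAAG overlap the AGGTCA match, in F7 on the other strand. The search for CAAAGT did not count them there, so a window without CAAAGT may still hold an HNF4-type site. GTTAAT was found in F2 and F13b (2 of 10, against 7.1%) and TATAAA in Klkb1 (1 of 10, against 13.6%). The TATAAA match of Klkb1 lay on the other strand, with its first base at -132 from the start. The C/EBP letters were found in 0 of the 10 windows, against 6.23% of all windows, and the E-box in 0, against 7.15%. No matches within the 10 windows overlapped (0).

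The AGGTCA matches lay close to the start sites. The stretches are shown in the direction of each gene, with the match in capitals.
F2: tgatctgcTGACCTctcccttg
F7: ctccccccTGACCTttgccctc
F10: gagagaagTGACCTtgtgtcaa
F5: ggggggagTGACCTcaacaagc
F9: cctaacaaAGGTCAtgaagcac
In F2, F7 and F10 the 6 letters were TGACCT, and their first base lay at -33, -34 and -30 from the start. TGACCT beginning between -34 and -30 was found in 44 of all 32851 windows (0.134%); this span was set after the 3 positions were seen. In F5 the match began at -57, and in F9 the letters were AGGTCA from -5. F2, F5, F7 and F10 were among the genes called higher in pregnancy, but so were F11 and F12, whose windows held no AGGTCA. F9, whose window held it, was not called in pregnancy (0.28, adjusted p = 0.108, limma). A match is a run of letters and not a measured binding site.

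Of the vitamin K-dependent proteases, F7 differed most between stages. F7 encodes factor VII, the partner of tissue factor. Its signal was 11.54 and 11.6 before pregnancy, 12.87 and 13.28 at day 21 of pregnancy, and 12.48 and 12.28 postpartum. The 3 pairs of arrays did not overlap. The rise in pregnancy was 1.505 ± 0.151 SE on the log2 scale (adjusted p = 0.00195, limma), and it was called without any one of the 6 arrays, at 1.3 to 1.71. Postpartum, F7 stood 1.75-fold above pre-pregnancy (0.81 ± 0.151, adjusted p = 0.0212), a call lost without either postpartum or either pre-pregnancy array (adjusted p = 0.0781 to 0.17). The postpartum difference from pregnancy was -0.695 ± 0.151, not called (adjusted p = 0.0522). That difference was called after repeated quantile normalization (0.0485), centring on medians (0.0487), leaving out dim genes (0.05) or a trended, robust variance (0.0213), and without pregnancy replicate 1 (0.0253).

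F10 encodes factor X, the protease at which both branches meet. Its brightest probe set stood at 12.34 and 12.23 before pregnancy, 13.22 and 13.43 at day 21 of pregnancy, and 12.9 and 12.83 postpartum. As with F7, pregnancy was highest, pre-pregnancy lowest and no arrays of different stages overlapped. The rise in pregnancy was 1.04 ± 0.114 (adjusted p = 0.00255), called without any one of the 6 arrays at 0.935 to 1.145, and the other probe sets of F10 rose by 0.755 and 0.71. Postpartum, F10 was 1.49-fold above pre-pregnancy (0.58 ± 0.114, adjusted p = 0.0255), but the other probe sets gave 0.315 and 0.39 and were not called by limma (adjusted p = 0.3 and 0.12 over all probe sets). The call was also lost with the mean of all probe sets (0.428, adjusted p = 0.084) and without either postpartum or either pre-pregnancy array (0.108 to 0.138). The postpartum difference from pregnancy was -0.46 ± 0.114 (adjusted p = 0.0757).

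F2 encodes prothrombin, the precursor of thrombin. Its signal was 13.71 and 13.72 before pregnancy, 14.12 and 14.07 at day 21 of pregnancy, and 13.77 and 13.75 postpartum. Replicates differed by 0.05 at most, and both pregnant arrays lay above the other 4. The rise was small, 0.38 ± 0.0966 (adjusted p = 0.039), and its call was lost without any one of the 6 arrays (0.0681 to 0.176), with only the pregnant and pre-pregnant arrays fitted (0.0681) and after repeated quantile normalization (0.0577). Postpartum, F2 was -0.335 ± 0.0966 from pregnancy (adjusted p = 0.109) and 0.045 ± 0.0966 from pre-pregnancy (adjusted p = 0.857).

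F9 encodes factor IX, the protease missing in haemophilia B. It had 12 and 12.08 before pregnancy, 12.35 and 12.29 at day 21 of pregnancy, and 12 and 11.91 postpartum. The pregnant arrays were the highest, yet the difference of 0.28 ± 0.102 from pre-pregnancy was not called (adjusted p = 0.108, 95% interval 0.04 to 0.52 for this gene alone). The postpartum difference from pregnancy, -0.365 ± 0.102, was not called either (adjusted p = 0.0999), though with a trended, robust variance both were (0.0453 and 0.0351).

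The cofactors F5 and F8 encode homologous proteins. F5 encodes factor V, which speeds factor X. It stood at 12.66 and 12.81 before pregnancy, 13.27 and 13.41 at day 21 of pregnancy, and 12.43 and 12.34 postpartum. Pregnancy was highest and postpartum lowest, with no overlap. F5 rose in pregnancy by 0.605 ± 0.111 (adjusted p = 0.0139), a call lost without pre-pregnancy replicate 1 (0.114) or pregnancy replicate 2 (0.0603). It fell postpartum to 12.385 on average, against 13.34 in pregnancy, a difference of -0.955 ± 0.111 (adjusted p = 0.00756) that was not called without postpartum replicate 2 (0.0521). The other probe set of F5 gave 0.825 and -1.115 for these comparisons. Postpartum F5 lay -0.35 ± 0.111 from pre-pregnancy, not called (adjusted p = 0.102; 0.0315 with a trended, robust variance).

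F8 encodes factor VIII, the cofactor missing in haemophilia A. It stood at 8.84 and 7.71 before pregnancy, 7.53 and 7.52 at day 21 of pregnancy, and 7.92 and 7.81 postpartum. The pre-pregnancy arrays lay 1.13 apart, a gap reached by 17 of 18194 genes (0.093%), while the replicates of the other stages lay within 0.11. F8 was not called in pregnancy (-0.75 ± 0.303, adjusted p = 0.139), postpartum against pregnancy (0.34 ± 0.303, adjusted p = 0.573) or postpartum against pre-pregnancy (-0.41 ± 0.303, adjusted p = 0.493). Without pre-pregnancy replicate 1 the difference in pregnancy was -0.185, and the postpartum difference from pre-pregnancy turned to 0.155. Without pre-pregnancy replicate 2 they were -1.315 (adjusted p = 0.0115) and -0.975 (0.0371), both called.

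Endothelial markers were read beside F8. Of 12 measured, 10 were higher in pre-pregnancy replicate 1 than in replicate 2, but by a median of 0.145 over the list, against the gap of 1.13 for F8. The 3 largest of these gaps were those of the sinusoidal markers Lyve1 (0.93), Fcgr2b (0.74) and Clec4g (0.48). For 6 of the 12, Vwf, Stab2, Pecam1, Eng, Kdr and Cdh5, the gap lay between -0.09 and 0.08, smaller in size than the median gap of 0.12 over all genes; the sinusoidal Stab2 (0.05) was among them. In pregnancy 3 of the 12 fell, Emcn (-0.70 ± 0.174), Tek (-0.615 ± 0.133) and Kdr (-0.46 ± 0.104), and 0 rose. Over all genes 8.25% fell and 5.46% rose. The signal of Emcn was dim, with a mean under the 40th percentile of genes, and Vwf stood at 6.56 and 7.97 in pregnancy, against 6.16 and 6.08 before pregnancy (1.145, adjusted p = 0.0802). The calls of Emcn, Tek and Kdr were each lost without either pre-pregnancy array and without pregnancy replicate 2, and those of Emcn and Kdr also without pregnancy replicate 1 (adjusted p up to 0.222, 0.167 and 0.122 in the order named). Kdr also lost its call after repeated quantile normalization. The list's linear signals were summed and given as a log2 value, so the bright Clec4g and Fcgr2b weigh most. The sum was 13.19 and 12.77 in pre-pregnancy livers, 12.55 and 12.63 at day 21 of pregnancy, and 12.57 and 12.46 postpartum. The mean of the 12 log2 signals was 8.16 and 7.92, 7.75 and 7.79, and 7.8 and 7.66 in the same order. Postpartum, 0 of the 12 were called against either stage. The part of these markers in the values of F8 was not tested.

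**Figure D2:**
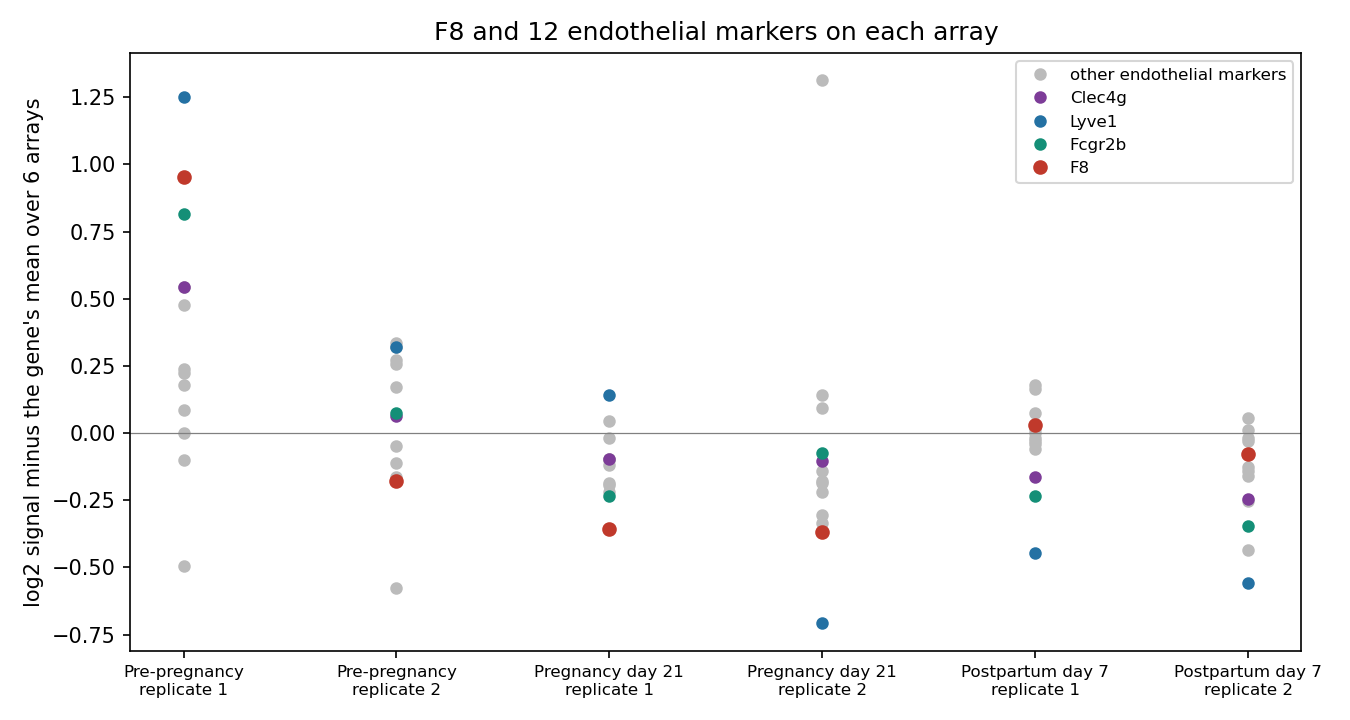
Log2 signal minus each gene's own mean over the 6 arrays (y axis) on each array (x axis), for F8 (red) and 12 endothelial markers (other colours). F8, Lyve1, Fcgr2b and Clec4g are highest on pre-pregnancy replicate 1, and the isolated high circle on pregnancy replicate 2 is Vwf (7.97, against 6.56 on pregnancy replicate 1).

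In the contact branch the genes did not share a size of change. F11 encodes factor XI, which activates factor IX. Its signal was 10.56 and 10.59 before pregnancy, 11.81 on both arrays in pregnancy, and 10.72 and 10.75 postpartum. Replicates differed by at most 0.03, and the pregnant arrays stood over 1 unit above the rest. F11 rose in pregnancy by 1.235 ± 0.0962 (adjusted p = 0.000735) and was 2.11-fold lower postpartum than in pregnancy (-1.075 ± 0.0962, adjusted p = 0.0028). Both calls held without any one of the 6 arrays and under the other 8 settings, at 1.22 to 1.295 and -1.132 to -1.06. Postpartum it lay 0.16 ± 0.0962 from pre-pregnancy (adjusted p = 0.386, 95% interval -0.06 to 0.38).

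F12 encodes factor XII, which starts the contact branch. It had 12.02 and 12.11 before pregnancy, 12.47 and 12.46 at day 21 of pregnancy, and 12.17 and 12.12 postpartum. The pregnant arrays were the highest, by 0.4 ± 0.0992 over pre-pregnancy (adjusted p = 0.0361). The call was lost without any one of the 6 arrays (0.0626 to 0.193) and with only these 2 stages fitted (0.0626). Postpartum, F12 was -0.32 ± 0.0992 from pregnancy (adjusted p = 0.128).

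Klkb1 encodes prekallikrein, which factor XII activates and which activates factor XII in turn. It had 12.25 and 12.28 before pregnancy, 12.36 and 12.48 at day 21 of pregnancy, and 12.37 and 12.34 postpartum. Its stages lay close together, and the pregnant and postpartum arrays overlapped. The difference in pregnancy was 0.155 ± 0.101 (adjusted p = 0.334), with a 95% interval of -0.08 to 0.39 that lies below the interval of 1.01 to 1.46 for F11, its neighbour on the chromosome; the difference between both genes was not tested.

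F13b encodes the carrier subunit of factor XIII, which in plasma binds the subunit that cross-links fibrin. It stood at 12.57 and 12.6 before pregnancy, 12.43 and 12.46 at day 21 of pregnancy, and 12.14 and 11.94 postpartum. Postpartum was lowest and no stages overlapped. F13b was 1.46-fold lower postpartum than before pregnancy (-0.545 ± 0.109, adjusted p = 0.0263), a call lost without either array of these 2 stages (0.0534 to 0.167). In pregnancy it was -0.14 ± 0.109 from pre-pregnancy (adjusted p = 0.42), and the postpartum difference from pregnancy was -0.405 ± 0.109 (adjusted p = 0.0922).

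**Figure D3:**
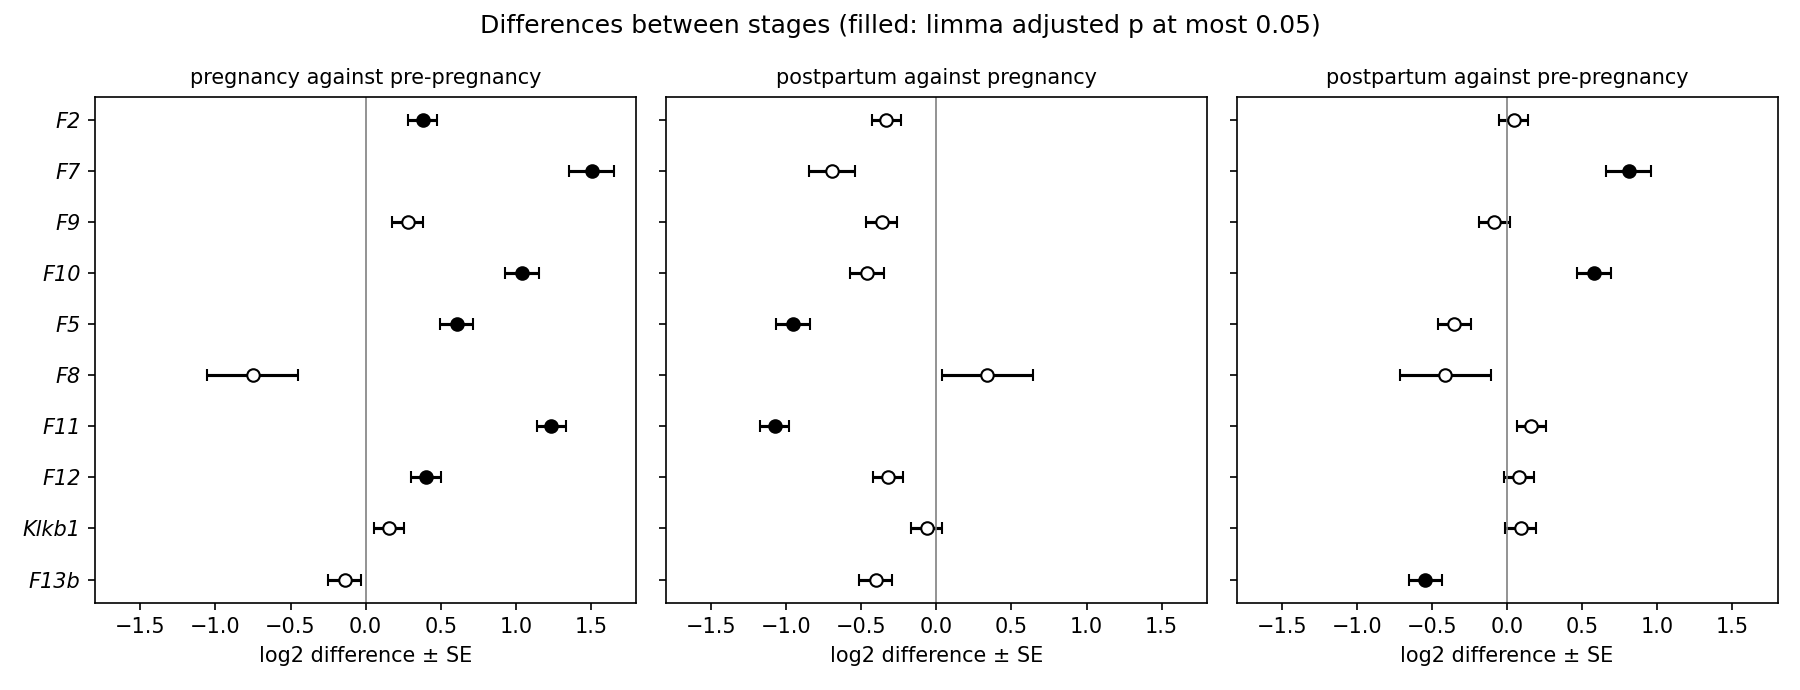
Log2 differences with their moderated SE (x axis) of the 10 genes (y axis) in 3 comparisons; filled points have an adjusted p of at most 0.05 over all genes. The 6 filled points in pregnancy all lie above 0, those of F5 and F11 lie below 0 postpartum against pregnancy, and F7 and F10 above and F13b below 0 postpartum against pre-pregnancy.

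Over the 10 genes the median difference in pregnancy was 0.39, against 0.045 over all genes, with a range of -0.75 to 1.505. The arrays did not overlap in 8 genes that were higher and 2 that were lower, where 33.6% of all genes were higher and 26% lower without overlap. Without pre-pregnancy replicate 1, 3 of the 10 were called higher, where 0.704% of all genes were, and without pregnancy replicate 2 also 3, where 2.7% of all genes were. Postpartum against pregnancy the median was -0.385, against -0.01 over all genes, and 8 genes were lower and 1 higher without overlap (25% and 25.1% of all genes). At an unadjusted p of at most 0.05, 8 of 10 were lower there (8.78% of all genes), and with a trended, robust variance 8 were called lower (1.35% of all genes). Without postpartum replicate 2, 1 was called lower (0.181% of all genes). Postpartum against pre-pregnancy the median was 0.062, against 0.025 over all genes, with 6 higher and 2 lower without overlap (30% and 22.6% of all genes). The comparisons share arrays, so a high pregnant value moves 2 of them in opposite directions.

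Other genes of the clotting system were followed in lists chosen with earlier results known. Over all genes, 5.46% were called higher and 8.25% lower in pregnancy, with a median of 0.045. Postpartum the shares were 2.41% and 0.879% against pregnancy, and 3.91% and 3.75% against pre-pregnancy. The list and marker counts that follow are to be read beside these shares. Of the 3 fibrinogen chains, the substrate of thrombin, 0 were called in any comparison, and their median in pregnancy was 0.095. A list of 5 other procoagulant and cofactor genes held F3, F13a1, Vwf, Kng1 and Tfpi2. The last encodes an inhibitor of tissue factor's protease complex and is not procoagulant. Of these 5, 0 were called in any comparison. Among 10 anticoagulant genes, 1 fell in pregnancy and 0 rose: Pros1, which encodes protein S, the cofactor of activated protein C, stood at 8.7 and 8.52 in pregnancy, against 9.29 and 9.03 before pregnancy (-0.55 ± 0.125, adjusted p = 0.0281). The median of that list was 0.103. Among 8 measured fibrinolysis genes, 1 rose: Serpinf2, the plasmin inhibitor, had 13.51 and 13.44 in pregnancy, against 12.64 and 12.84 before pregnancy (0.735 ± 0.112, adjusted p = 0.00767). The call of Pros1 was lost without either pre-pregnancy array or pregnancy replicate 2 (adjusted p up to 0.177), and that of Serpinf2 without pre-pregnancy replicate 1 (0.0745). Postpartum, 0 genes of the anticoagulant and fibrinolysis lists were called against either stage.

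Genes that modify, export or clear clotting factors were next. The products of F2, F7, F9 and F10 need carboxylation that depends on vitamin K. Of 6 measured genes in a list linked to vitamin K, 0 were called in pregnancy, with a median of -0.29. What a rise or fall of a listed gene does to carboxylation was not tested. Postpartum against pregnancy 2 rose, Nqo1 (1.295 ± 0.120), a quinone reductase, and Cyp4f14 (0.64 ± 0.102), and Nqo1 was also higher than before pregnancy (0.965 ± 0.120). Of 10 secretion and processing genes 2 rose and 1 fell in pregnancy. Furin, the protease that removes propeptides, had 10.38 and 10.66 in pregnancy, against 9.47 and 9.63 before pregnancy (0.97 ± 0.129, adjusted p = 0.00463). Surf4, a cargo receptor, rose by 0.515 ± 0.135 on its brightest probe set, but the mean of its probe sets gave -0.041 (adjusted p = 0.853). Tpst1, a tyrosine sulfotransferase, fell by 0.615 on the log2 scale (SE 0.0990). Postpartum against pre-pregnancy Tpst1 (-0.495 ± 0.0990) and Sec24a, a coat protein of export vesicles (-0.61 ± 0.119), were lower. Of 6 measured clearance receptors 2 rose in pregnancy, both subunits of the asialoglycoprotein receptor: Asgr2 by 0.815 ± 0.160 and Asgr1 by 0.395 ± 0.108. No clearance receptor (0 of 6) was called postpartum. Of these calls, that of Nqo1 against pregnancy held without any one of the 6 arrays. Those of Furin and Tpst1 in pregnancy were lost without pre-pregnancy replicate 1 alone (adjusted p = 0.0619 and 0.0827), Nqo1 against pre-pregnancy without either pre-pregnancy array (up to 0.0776), and Asgr2 without either pre-pregnancy array or pregnancy replicate 2 (up to 0.0991). The calls of Surf4 and Asgr1 were lost in 5 of the 6 cases (up to 0.239 and 0.193) and that of Cyp4f14 in all 6 (0.0537 to 0.13). Postpartum against pre-pregnancy, the calls of Tpst1 and Sec24a were lost without either array of these stages (up to 0.184 and 0.186).

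Of 16 measured transcription factors of the liver, 2 rose and 6 fell in pregnancy, with a median of -0.338. Over all genes 5.46% rose and 8.25% fell, with a median of 0.045. The 2 that rose were Stat3 (0.615 ± 0.112) and Nr1i3 (0.555 ± 0.130). Over the arrays left out they lay at 0.52 to 0.71 and 0.385 to 0.725, and both calls were lost without either pre-pregnancy array. The oestrogen receptor gene Esr1 fell most, to 10.39 and 11.09 in pregnancy, against 12.18 and 12.02 before pregnancy (-1.36 ± 0.206, adjusted p = 0.00749). Foxa1 (-0.93 ± 0.215), Foxa2 (-0.77 ± 0.135) and the glucocorticoid receptor gene Nr3c1 (-0.72 ± 0.147) fell as well. Postpartum against pregnancy Nr1i3, a xenobiotic receptor, was lower (-0.62 ± 0.130) and 0 were higher. Postpartum against pre-pregnancy 1 was higher, Cebpa (0.54 ± 0.109), and 4 were lower, with Esr1 (-1.175 ± 0.206), Cebpb (-0.96 ± 0.121) and Nr3c1 (-0.80 ± 0.147) the largest. Without pre-pregnancy replicate 1 the calls of Esr1, Foxa1, Foxa2 and Nr3c1 in pregnancy were lost (adjusted p up to 0.0837, 0.195, 0.107 and 0.146 over the arrays left out); Foxa1 was also lost without pre-pregnancy replicate 2 or pregnancy replicate 1, and Nr3c1 without pregnancy replicate 2. That of Nr1i3 postpartum against pregnancy was lost in 5 of 6 cases (-0.79 to -0.45 over the arrays left out). Postpartum against pre-pregnancy, Cebpb was lost without pre-pregnancy replicate 1 (0.0873), Esr1 and Cebpa without either array of these stages (up to 0.164 and 0.193), and Nr3c1 without 3 of these 4 arrays (up to 0.168).

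Complement components and other secreted hepatocyte proteins served as the closest groups of liver-made plasma proteins. In pregnancy 1 of 16 measured complement genes rose and 3 fell, with a median of -0.118. Masp1, a protease of the lectin pathway, rose by 0.49 ± 0.131, and the pore components C9 (-3.78 ± 0.307) and C8b (-1.91 ± 0.196) and the protease C1s1 (-0.53 ± 0.126) fell. Postpartum against pregnancy, C9 was higher (1.93 ± 0.307) and C8a lower (-0.93 ± 0.155). Postpartum against pre-pregnancy, C9 (-1.85 ± 0.307), C8b (-1.67 ± 0.196) and C8a (-1.435 ± 0.155) were lower and 0 were higher. Of 11 secreted proteins 2 rose in pregnancy, Fetub (0.68 ± 0.113) and Apob (0.58 ± 0.0982), and 0 fell, with a median of 0.105. Haptoglobin (Hp) was lower postpartum than in pregnancy (-0.60 ± 0.115), and Apob higher than before pregnancy (0.535 ± 0.0982). The falls of C9 and C8b in pregnancy were called without any one of the 6 arrays. Fetub and Apob lost their calls in pregnancy without pre-pregnancy replicate 1 (adjusted p = 0.0876 and 0.0908), as C8a and C8b did postpartum against pre-pregnancy (0.0587 and 0.0776). Masp1 and C1s1 lost theirs in 5 of 6 cases (up to 0.233 and 0.197), and the mean of its probe sets gave 0.18 for Masp1. The postpartum calls of C9 were lost in 4 cases against pregnancy and 2 against pre-pregnancy (up to 0.0831 and 0.141), that of C8a against pregnancy in 4 (up to 0.118), that of Hp in all 6 (up to 0.175) and that of Apob in 4 (up to 0.16). With a trended, robust variance C9 also lost both postpartum calls, and with the mean of its probe sets Apob lost both of its calls.

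**Figure D4:**
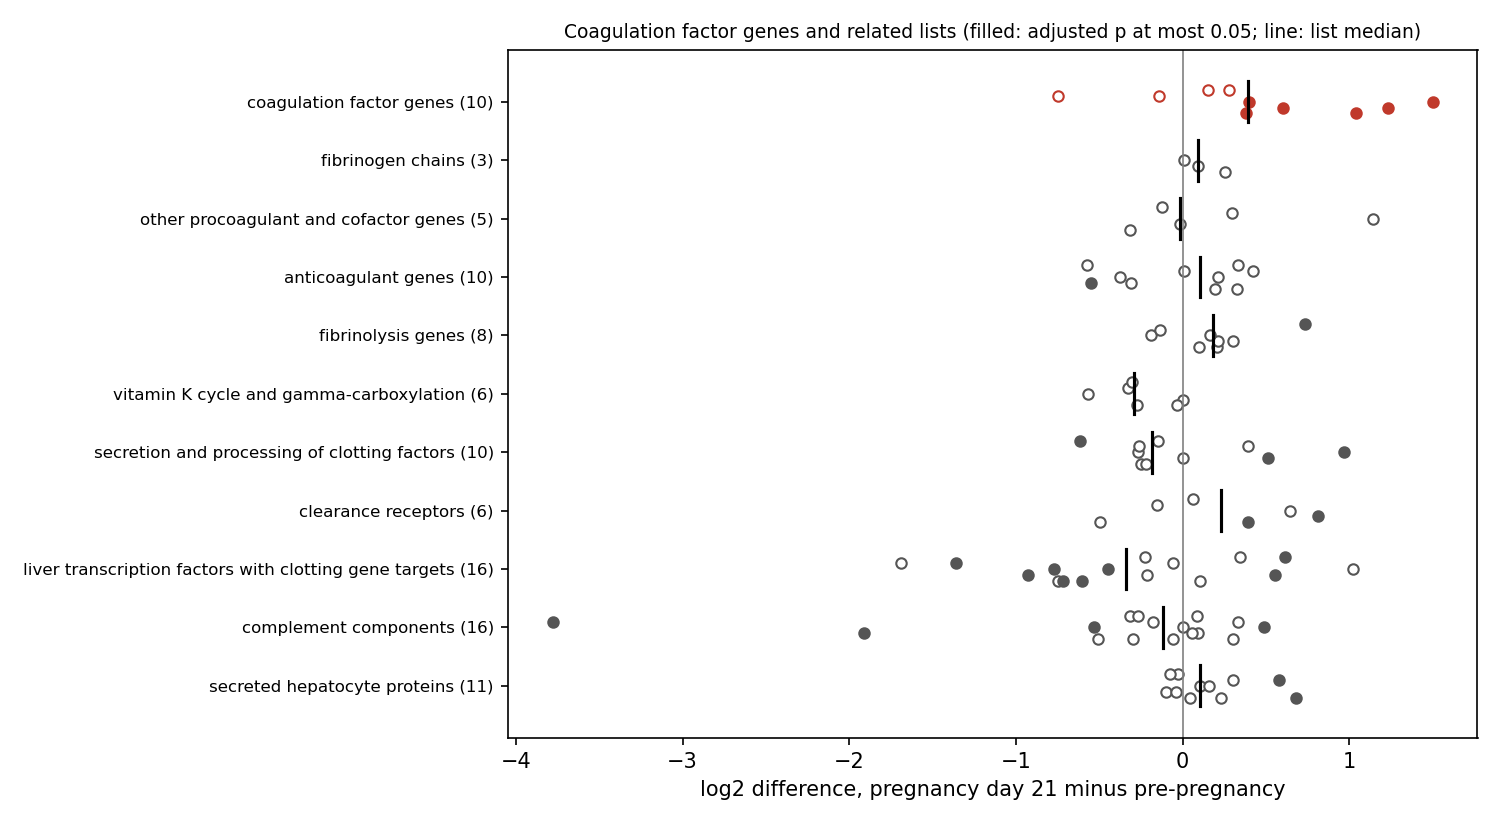
Log2 difference of pregnancy day 21 minus pre-pregnancy (x axis) for the 10 coagulation factor genes (red) and for genes of related lists (grey; y axis, with the number measured); filled points have an adjusted p of at most 0.05 and lines are medians. The median of the coagulation factor genes is 0.39 and those of the other lists lie between -0.338 and 0.228.

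By position, F7 and F10 are neighbours on chromosome 8, and so are F11 and Klkb1; 0 protein-coding genes lie between the members of either pair in RefSeq. The nearest 4 measured genes on each side of each pair were chosen after the members' values were seen. Proz, the next gene after F10, encodes protein Z, a vitamin K-dependent cofactor of an inhibitor of factor X. It stood at 11.9 and 11.99 in pregnancy, against 11.7 and 11.77 before pregnancy (0.21, adjusted p = 0.212). Of the 8 neighbours of F7 and F10, Tubgcp3 was called in pregnancy (-0.58, adjusted p = 0.025) and the others were not. Around F11 and Klkb1, Cyp4v3 (-0.58), Fam149a (-0.59) and Tlr3 (-0.58) fell and Sorbs2 rose (0.795), while Mtnr1a, the melatonin receptor gene next to F11, was dim and not called (0.01, adjusted p = 0.981). Each of these 5 calls was lost when pre-pregnancy replicate 1 or replicate 2 was left out (adjusted p up to 0.162 for Tubgcp3, 0.0774 for Cyp4v3, 0.121 for Fam149a, 0.178 for Tlr3 and 0.0902 for Sorbs2); Tubgcp3 and Tlr3 were also lost without either pregnant array, and Fam149a without pregnancy replicate 2.

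**Figure D5:**
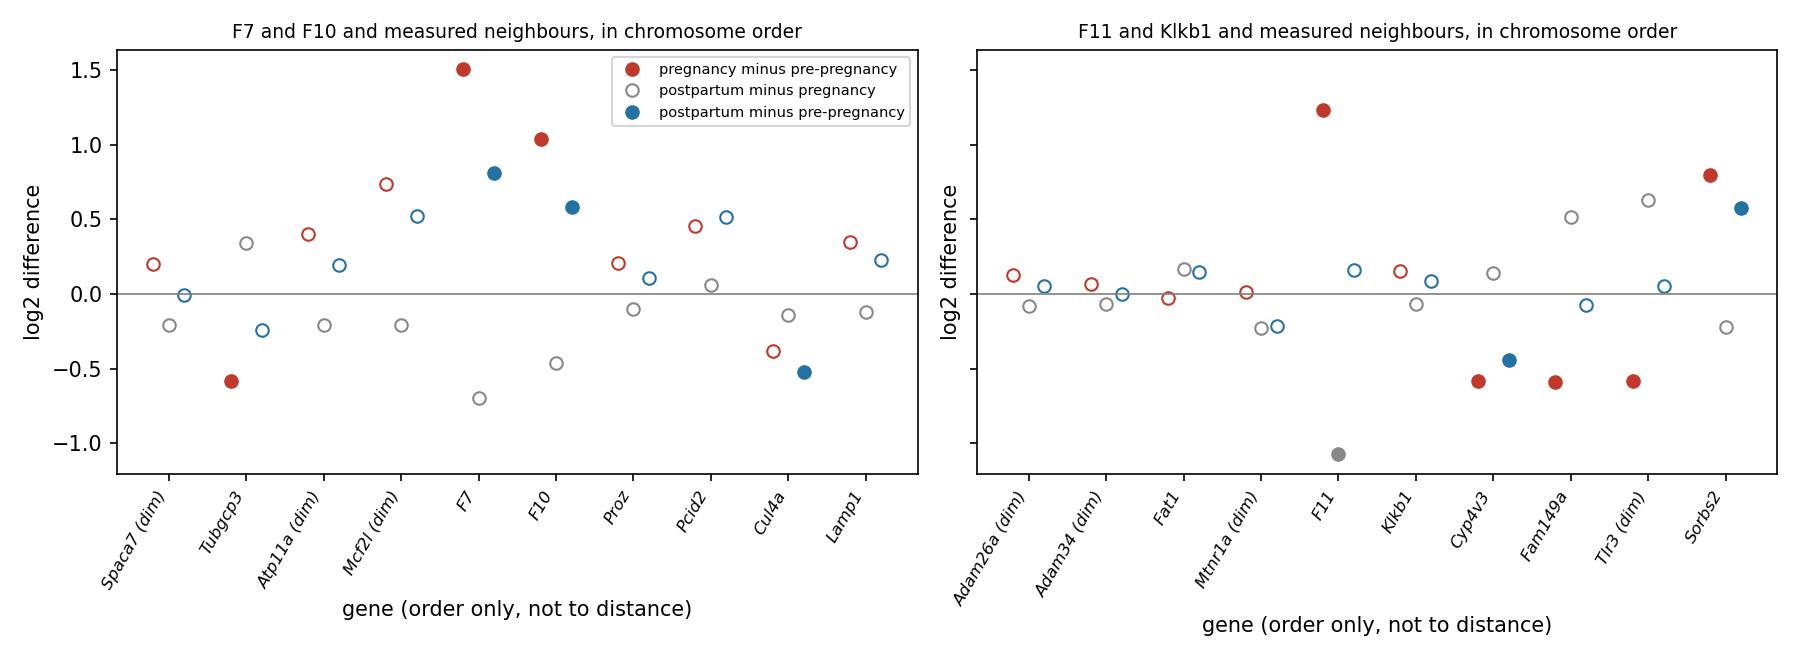
Log2 differences (y axis) of F7 with F10 (left) and F11 with Klkb1 (right) and of 4 measured neighbours on each side, in chromosome order and not to distance (x axis); colours give the comparison, filled points have an adjusted p of at most 0.05, and dim marks genes whose mean lies under the median of all genes. F7 (1.505), F10 (1.04) and F11 (1.235) have the highest red points in their panels.

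F7 and F11 had the widest range of stage means among the 10, and the genes closest to them over the 6 arrays were sought among 2606 bright genes that varied between stages. Closest to F7 were Cd9, a tetraspanin (Pearson r = 0.9939), Furin (0.9937) and F10 (0.9925). Cd9 had 8.46 and 8.51 before pregnancy, 10.65 and 11.07 at day 21 of pregnancy, and 9.76 and 9.4 postpartum, so its postpartum arrays also lay between the other stages. Closest to F11 were Foxa3, a liver forkhead factor (0.9979), Gpx3, a secreted peroxidase (0.9944) and Cela3b, an endopeptidase (0.9938). Foxa3 had 10.09 and 10.04 before pregnancy, 11.12 and 11.09 at day 21 of pregnancy, and 10.16 and 10.25 postpartum, with pregnancy again apart from both other stages. A Pearson r of at least 0.95 was reached by 79 of the 2606 genes with F7 and by 50 with F11, and one of at least 0.98 by 15 and 14. These values rest on 3 pairs of arrays and are descriptions only.

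Markers of other cells were read beside these results. Of 10 megakaryocyte and platelet markers measured, 1 rose in pregnancy (Treml1) and 0 fell. The list's linear sum, as a log2 value, was 10.31 and 9.89 in pre-pregnancy livers. It was 9.95 and 9.94 at day 21 of pregnancy and 9.85 on both arrays postpartum. Of 9 Kupffer cell markers 2 fell in pregnancy, Timd4 (-0.905 ± 0.100) and Lyz2 (-0.47 ± 0.123), and of 8 stellate cell markers 1 fell, Lrat (-1.47 ± 0.313, but -0.905 without pregnancy replicate 2). The call of Timd4 held without any one of the 6 arrays, while those of Treml1, Lyz2 and Lrat were among those lost when 1 of the pre-pregnancy arrays, whichever it was, stayed out (adjusted p up to 0.159, 0.215 and 0.164); Lyz2 also lost its call after repeated quantile normalization and Lrat with a trended, robust variance. Of the bile duct, erythroid and lymphocyte lists 0 markers were called in pregnancy. These lists were mostly dim: 1, 2 and 1 of the 5 measured in each, in this order, reached the 40th percentile of genes. Postpartum against pre-pregnancy, Marco of the Kupffer cell list was higher (1.03 ± 0.202) and Timd4 lower (-0.61 ± 0.100), and Ms4a1 of the lymphocyte list was lower (-0.54 ± 0.126). Ass1, 1 of the 9 hepatocyte markers, was higher postpartum than in pregnancy (1.055 ± 0.190). It was also higher than before pregnancy (0.905 ± 0.190, but 0.59 without pre-pregnancy replicate 1). The Ass1 signal was low for that list, at 6.09 to 7.33 over the arrays, where the median of all genes was 6.38. The calls of Marco and Timd4 were lost without any one array of these stages (adjusted p up to 0.204 and 0.116), those of Ass1 in 4 and 3 of 6 cases (up to 0.141 and 0.143) and that of Ms4a1 in all 6 (up to 0.247). With the mean of all probe sets Marco and Ms4a1 lost their calls as well. The other marker lists had 0 calls postpartum. Their part in the values of the clotting genes was not tested.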

How the data were processed

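Total RNA was extracted with Trizol and 250 ng was labelled with biotin by a 3' IVT Express protocol, per the labels' protocols. The authors deposited a log2 value for each of 45101 probe sets; the submitters' processing notes name RMA and Affymetrix Power Tools, without version or settings. The log2 base was inferred from the values. RMA usually forces the arrays to 1 distribution, which removes a change shared by most genes. The labels do not state collection time, feeding or scan batch, so stage cannot be told apart from them if they differed.

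Symbols came from the platform annotation (34958 with 1 symbol, 932 with several, left out); 34754 gene IDs matched the RefSeq table and 0 symbols changed. The brightest probe set per gene gave 18194 genes. The test was limma 3.58.1's, run in R 4.3.3 (lmFit with group means over the 6 arrays, eBayes, 3 residual and 4.8 prior degrees of freedom), two-sided, with Benjamini-Hochberg adjusted p at a threshold of 0.05. SE is the moderated standard error. P-values set a difference against the spread between replicates, pooled over the stages and moderated by the spread of all genes. How the replicates were obtained is not given.

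The 10 members and all lists were chosen with earlier results of these data known. Named were all members and up to 4 called genes with the largest difference per list and comparison. The 3 genes most correlated with each of the 2 most variable members were also named. Marker and neighbour genes, with Stat3 and Nr1i3 in pregnancy, were named once their values had been seen. Simulated data with known changes served to test the fit. Other settings were a replicate block, repeated quantile normalization, median centring, leaving out genes under the 40th percentile (5.52), the mean of all probe sets, a trended and robust variance, every probe set by itself, only the 2 stages compared, and leaving out each array; leaving out 1 array leaves a stage with 1, assumed to vary like the others. Same-numbered replicates did not deviate together (correlations of 0.028, 0.111 and -0.027), so the numbers were not taken as pairs.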

Additional observations from a re-analysis of the deposited data

How the results depend on the processing

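Of the 30 member differences, 373 of 420 alternative values kept direction and side of the threshold, 32 lost a call, 14 gained one and 1 changed sign: that of F8 postpartum against pre-pregnancy, which ran from -0.975 to 0.155 over the arrays left out and was 0.155 without pre-pregnancy replicate 1. Members called numbered 6 in pregnancy against pre-pregnancy, 2 between postpartum and pregnancy, and 3 between postpartum and pre-pregnancy; leaving out 1 array gave 3 to 5, 1 to 3 and 0 to 3. Over all genes the counts were 2494, 599 and 1393, and leaving out 1 array gave 323 to 1977, 115 to 528 and 73 to 1582. A trended, robust variance called 8 members postpartum against pregnancy. Fitting only the 2 stages compared left 203 genes there, where 4 arrays enter the fit, and testing every probe set by itself gave 2182 genes with at least 1 called probe set postpartum against pre-pregnancy. Postpartum against pregnancy 439 genes were higher and 160 lower, but 292 and 175 after repeated quantile normalization and 390 and 219 after centring. With the replicate block 5, 2 and 3 members and 2612, 574 and 1568 genes were called, and F2 lost its call in pregnancy (adjusted p = 0.0508); it changed no other call of a member, and of the other named genes Asgr1 and Masp1 in pregnancy and Nr1i3 and Hp postpartum against pregnancy lost theirs. Leaving out either array of the stage outside a comparison gave the same fit as using only the 2 stages compared. These 3 of the 14 settings per comparison hold 1 result. The 420 values and the 6 cases of an array left out therefore repeat it and are not separate checks. Where no cause is named, the cause was not tested. Of 67 calls of the 46 other listed or named genes, 10 held without any one array and 47 under all 8 other settings; 2 more, of genes under the 40th percentile, could not be tested with dim genes left out, and 1 of these held under the settings that could be run; 1 value changed sign, that of Surf4 in pregnancy (-0.041 with the mean of its probe sets). All 10 members lay above the 40th percentile of genes (5.52), and 2 arrays a stage limit the precision.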
